A study of Mus musculus with 3 samples.

Results

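The genes described here are the clustered histone genes of the mouse, taken as every symbol in the gene tables that begins with Hist1h, Hist2h, Hist3h or Hist4. There were 67 of them among 32285 genes. By the histone they encode, 6 were genes of the linker histone H1, 18 of H2A, 18 of H2B, 12 of H3 and 13 of H4. In the GENCODE M21 annotation 54 lay in the Hist1 group on chromosome 13, 10 in Hist2 on chromosome 3, 2 in Hist3 on chromosome 11 and 1, Hist4h4, on chromosome 6. The rule uses names alone, and all 67 are accounted for in the counts that follow.

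The cells came from blastoids, aggregates of stem cells that form a cavity and resemble a blastocyst. The stem cells were of the mouse line E14 and were kept in medium with 1000 U/mL leukemia inhibitory factor and 10 µM T0901317, an agonist of the liver X receptors that the labels use to define Nr1h2-activated cells (NrESC). About 5 cells per microwell were aggregated, and manual picking on day 5 gave the material for 3 samples, NrESC_Type_I, NrESC_Type_II and NrESC_Type_III, each a single 10x Genomics 3′ library, and the labels used here do not say how the types differ. All 3 received the same media: 12.5 ng/mL rhFGF4, 0.5 µg/mL heparin, 3 µM CHIR99021 and, for the first day, 2 µM Y-27632, followed by 5 ng/mL BMP4 and 0.5 µM A83-01 in place of Y-27632. None of the 3 lacked T0901317, so none is an untreated control. With 1 library per type, differences between types carry no test. The comparisons below set barcodes of the same library against each other, and the 3 libraries serve as the repeats. The labels do not state that they came from separate cultures, and p-values measure how alike a difference was in these 3 libraries.

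Replication-dependent histone genes supply the histones that package newly copied DNA, and their transcription rises as cells enter S phase and falls when replication ends. Their mRNAs are unusual in that most carry no poly(A) tail. They end in a conserved stem-loop that is bound by the stem-loop binding protein (Slbp), and the U7 small nuclear ribonucleoprotein directs the cut just downstream of it. Library kits that prime with oligo(dT), such as the one used here, capture poly(A) tails and other A-rich stretches, so the counts below are of histone RNA molecules that such a primer reached.

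The stem-loop was searched in the annotated transcripts (GENCODE M21, build GRCm38) as a 16-base core with at most 1 mismatch in the 100 bases after the stop codon. It was found for 46 of the 67 genes (68.7%), and in 6 of 58725 other protein-coding transcripts (0.0102%), which belong to H2afx, H2bfm, Snrpa and Znhit3. The sites held 8 distinct cores. These 5 sites are shown because they carry the cores of the genes with the most counts and of single-gene variants. Each is written 5′ to 3′ on the gene's strand with the core in capitals and 5 flanking bases on either side in lower case.
Hist1h2ae: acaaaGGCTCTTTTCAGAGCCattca
Hist1h4d: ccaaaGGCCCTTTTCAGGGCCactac
Hist1h3c: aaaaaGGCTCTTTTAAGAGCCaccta
Hist1h4a: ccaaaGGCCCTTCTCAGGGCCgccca
Hist2h2ac: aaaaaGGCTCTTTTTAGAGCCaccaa
The Hist1h2ae site lies at chr13:23570663-23570688 (− strand), the Hist1h4d site at chr13:23581945-23581970 (+ strand) and the Hist1h3c site at chr13:23745042-23745067 (− strand). The Hist1h4a site lies at chr13:23760795-23760820 (− strand) and the Hist2h2ac site at chr3:96220413-96220438 (− strand), all in the exon of a single-exon gene, downstream of its stop codon. The core of Hist1h2ae was shared by 26 genes of the H1, H2A, H2B and H3 types, that of Hist1h4d by 7 genes, all H4, and that of Hist1h3c by 6 genes of the H1, H2B and H3 types. The cores of Hist1h4a and Hist2h2ac were each found in 1 gene.

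Annotated transcript ends did not all stop at the stem-loop. For 23 genes the annotated transcript ended within 100 bases of it, for 23 it ran on for more than 100 bases, and for 21 no stem-loop was found. A poly(A) signal, AATAAA or ATTAAA on the sense strand in the last 50 bases, was present in 17 of the 67 genes (25.4%) against 50.2% of other protein-coding transcripts. For this signal and for the stem-loop, a histone gene counted if any of its searched transcripts held the motif. The others were counted transcript by transcript, so the units differ. Of the histone UMIs, 56.4% came from the 23 genes whose transcripts run past the stem-loop, 26.2% from the 23 that end at it and 17.4% from the 21 with none. A UMI (unique molecular identifier) is a tag that marks 1 captured RNA molecule, so counts of UMIs need no correction for gene length, but capture may differ between genes, and levels of different genes are compared here only as shares of UMIs.

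The gene family has properties that limit single genes. At least 20% of the 50-base windows in the 3′ end of the transcript were found in another gene for 48 of the 67, and at least 50% for 38, so reads may be split between copies or dropped, and those levels are uncertain. Of the rest, Hist1h4d, Hist1h1a, Hist1h1b, Hist1h1c and Hist1h1d had no copied window. In addition, 7 genes overlap another gene on the same strand. For 3 of them, Hist1h1e, Hist2h2bb and Hist2h3c1, the windows were found only in the genes that overlap them, not in a copy elsewhere.

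Barcodes were kept with at most 20% mitochondrial UMIs and at least 500 genes. Of 6813, 9265 and 2310 deposited barcodes in Type I, II and III, 5274, 8336 and 1190 passed with at least 1000 UMIs. They were divided by depth into 1000 to 3000 UMIs (3016, 5144 and 677 barcodes), 3000 to 10000 UMIs (853, 1200 and 241) and at least 10000 UMIs (1405, 1992 and 272), called shallow, intermediate and deep. Median UMIs of the deep barcodes were 52224, 41491 and 71540. Between 151 and 209 deposited barcodes were shared by each pair of libraries, and 1 deep barcode was shared, between Type I and Type II.

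In the kept barcodes 208259 UMIs came from clustered histone genes, or 1002, 899 and 1219 CPM (counts scaled to a total of 1000000 UMIs) in Type I, II and III, in that order here and throughout. Hist1 genes gave 94.8% of them. H2A genes contributed 28.9%, H1 genes 25.8%, H4 genes 22.3%, H3 genes 14.3% and H2B genes 8.65%. The counts were concentrated in few genes: Hist1h4d, Hist1h2ae, Hist1h2ap and Hist1h1e together held 52.0%, and the 8 genes with the most counts held 73.5%. There were 39 genes with at least 500 UMIs, which are each given below, 57 with at least 100, and 2 with none. Those 2 were Hist2h2aa2 and Hist1h2bq, both almost identical to another gene, and a count of 0 allows up to 0.0141 CPM (3 counts in all kept barcodes).

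The linker histones bind where DNA enters and leaves the nucleosome. Hist1h1e, the most counted of them, was at 106, 111 and 88.7 CPM, though 97.8% of its windows are shared with Gm11398 and Hist1h2be, which the annotation places over it on the same strand. Hist1h1b was at 63.3, 76.2 and 56.6 CPM. Hist1h1a was at 34.6, 34.2 and 25.8 CPM. These 3 genes were lowest in Type III. Hist1h1c was at 24.6, 23.8 and 20.7 CPM. Hist1h1d was at 19.1, 19.5 and 17.2 CPM. The sixth gene, Hist1h1t, encodes the testis linker histone and had 37 UMIs in all. Summed, H1 genes gave 248, 265 and 209 CPM.

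H2A pairs with H2B in the nucleosome core, and the summed H2A level was 286, 239 and 458 CPM. Hist1h2ae was at 125, 118 and 196 CPM. Hist1h2ap was at 113, 83.3 and 191 CPM. Both were highest in Type III, and their exact Poisson intervals there, which cover counting error only, did not reach those of the other libraries. Hist1h2ak was at 6.56, 5.68 and 8.92 CPM. Hist2h2aa1 was at 7.66, 5.24 and 6.43 CPM. Hist1h2ab was at 5.85, 4.19 and 11.1 CPM. Hist2h2aa1 was the only one of these 3 that was not highest in Type III. Hist2h2ac was at 5.41, 4.31 and 9.73 CPM. Hist3h2a was at 4.14, 4.48 and 3.99 CPM. Hist1h2ac was at 3.82, 3.52 and 4.97 CPM. Hist3h2a, an uncopied gene of the Hist3 group, varied least among the libraries of these 3. Hist1h2ai was at 3.20, 2.46 and 6.82 CPM, Hist1h2af at 2.84, 2.01 and 6.17 CPM and Hist1h2an at 2.66, 1.69 and 4.76 CPM. All of these last 3 were highest in Type III and lowest in Type II. The other 7 H2A genes had between 0 and 417 UMIs, and among them is Hist1h2aa, which encodes the testis H2A variant TH2A.

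H2B genes summed to 86.6, 75.7 and 115 CPM. Hist2h2bb, of the Hist2 group, was at 18.9, 18.3 and 17.2 CPM. Hist1h2bj was at 15.4, 13.0 and 27.1 CPM. Hist1h2bc was at 9.42, 8.59 and 9.77 CPM. Of these, Hist1h2bj was highest in Type III and Hist2h2bb and Hist1h2bc were at similar levels in each library. Hist1h2bl was at 8.46, 6.07 and 8.87 CPM. Hist1h2be was at 5.93, 5.21 and 8.06 CPM. Hist3h2ba was at 4.56, 5.23 and 5.62 CPM. Hist3h2ba was the only one of these 3 that was not lowest in Type II. Hist1h2bm was at 5.04, 4.45 and 4.59 CPM, Hist1h2bb at 3.84, 2.75 and 3.69 CPM, Hist1h2br at 3.82, 2.99 and 7.16 CPM and Hist1h2bk at 2.80, 2.01 and 6.69 CPM. Hist1h2br and Hist1h2bk were highest in Type III, and Hist1h2br is a complete copy in its 3′ end. The other 8 H2B genes had between 0 and 465 UMIs.

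H3 pairs with H4 in the nucleosome core, and H3 genes summed to 153, 120.4 and 171 CPM. Hist1h3c was at 75.3, 54.4 and 69.3 CPM. Hist1h3e was at 44.3, 38.4 and 59.2 CPM. Hist1h3a was at 9.24, 7.75 and 12.7 CPM. Hist1h3c was highest in Type I and the other 2 in Type III. Hist1h3f was at 6.34, 5.59 and 9.30 CPM and Hist1h3i at 7.05, 5.12 and 6.86 CPM. Hist1h3d was at 3.02, 2.82 and 4.07 CPM and Hist1h3b at 2.80, 2.36 and 2.70 CPM. All 7 were lowest in Type II. The other 5 had between 40 and 387 UMIs.

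H4 genes summed to 229, 198 and 266 CPM, and Hist1h4d, the most counted gene of the family, made up most of that. Hist1h4d was at 173, 151 and 189 CPM. Hist1h4h was at 16.1, 14.6 and 19.0 CPM. Hist1h4a was at 15.8, 13.2 and 19.3 CPM. All 3 were highest in Type III and lowest in Type II. Hist4h4 was at 5.51, 5.64 and 7.93 CPM, Hist1h4i at 5.13, 4.75 and 9.22 CPM and Hist1h4c at 3.57, 2.23 and 5.57 CPM. These were also highest in Type III. The other 7 H4 genes had between 1 and 467 UMIs.

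Clustered histone RNA took a larger share of the UMIs in shallow than in deep barcodes of every library. The summed level was 1698, 1708 and 2549 CPM in shallow barcodes, 1503, 1449.7 and 2625 CPM in intermediate ones and 932, 779.5 and 1061 CPM in deep ones. The shallow and deep levels did not overlap between libraries. The deep level was 0.549, 0.456 and 0.416 times the shallow level. The 95% intervals of these ratios, for counting error only, were 0.536 to 0.561, 0.448 to 0.464 and 0.400 to 0.433. The median barcode gave 0.142, 0.149 and 0.174% of its UMIs to these genes when shallow and 0.0566, 0.0478 and 0.0785% when deep.

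**Figure D1:**
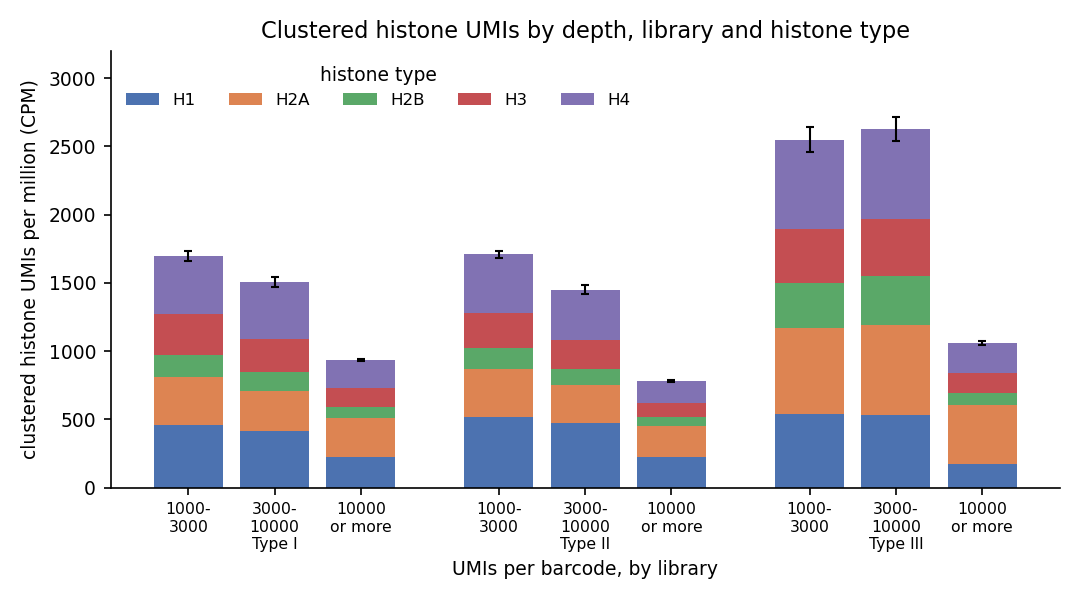
Summed clustered histone level (CPM, y axis, linear from 0) by UMIs per barcode and library (x axis), stacked by histone type, with exact Poisson 95% intervals of the sum, for counting error only, as black bars. Bars fall from 1698, 1708 and 2549 CPM in shallow barcodes to 932, 779.5 and 1061 CPM in deep ones, and the H2A part keeps most of its height.

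The types did not change in equal measure. H1 went from 460.3, 519 and 542 CPM in shallow barcodes to 226, 226 and 172 CPM in deep ones. H4 went from 424, 429.7 and 658 CPM to 206, 164 and 221 CPM. H2A went from 349, 350.5 and 629.7 CPM to 282, 225 and 437 CPM. All 3 types were lower in deep barcodes of each library, and the deep level of H2A was 0.809, 0.643 and 0.693 times the shallow one, the highest ratio of the 5 types in every library. The ratio was 0.491, 0.427 and 0.267 for H2B and 0.457, 0.389 and 0.369 for H3. H2A accordingly made up 20.5, 20.5 and 24.7% of histone UMIs in shallow barcodes and 30.3, 28.9 and 41.1% in deep ones. The H2A sum is mostly that of Hist1h2ae and Hist1h2ap, with 27581 and 22887 of 60229 UMIs in the kept barcodes.

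Gene by gene, 57 members had enough counts for the edgeR quasi-likelihood test of deep against shallow barcodes with the library as a block. Of these, 47 were lower in deep barcodes at an adjusted p under 0.05 and 0 were higher. Over all genes tested, 11.0% passed that threshold, 4.69% lower and 6.26% higher. There were 40 members at least 2-fold lower, where 0.779% of all genes were. The median log2 fold change of the members was -1.32, and that of all genes -0.02. By type, 5 of 5 H1, 11 of 16 H2A, 14 of 15 H2B, 8 of 10 H3 and 9 of 11 H4 genes fell. The median of the genes of a type was -1.17 for H2A, against -1.54, -1.33, -1.31 and -1.38 for H1, H2B, H3 and H4. The number of members called was 15 without the library block, 25 with DESeq2 and 30 when Type II was left out. In each, 0 members were called higher. Over all genes tested, the same runs called 90, 806 and 321. Of the 57, 6 averaged under 1 CPM in 1 of the 2 groups only. With no filter on low counts 65 members were tested and 47 fell.

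Hist1h1d fell the most of the linker histones. It was at 16.1, 15.0 and 11.0 CPM in deep and 46.9, 46.4 and 62.9 CPM in shallow barcodes, with no overlap. Its log2 fold change was -1.91 ± 0.14 (SE), with an edgeR adjusted p = 5.17e-12, and brackets give the same quantities for other genes from here on. Hist1h2br was at 2.96, 1.80 and 3.25 CPM in deep and 10.3, 12.0 and 41.3 CPM in shallow barcodes (-2.79 ± 0.24, adjusted p = 2.60e-10), again without overlap. Hist1h2ao, Hist1h2bn and Hist1h4f were also among the largest falls, but their deep level averaged under 1 CPM, so that they passed the filter on low counts only through the shallower barcodes. Hist1h2ao was at 0.217, 0.103 and 0.382 CPM in deep and 1.03, 0.449 and 3.59 CPM in shallow barcodes (-2.57 ± 0.71, adjusted p = 0.0147). Hist1h2bn was at 0.524, 0.376 and 1.05 CPM and 2.27, 1.01 and 8.08 CPM (-2.23 ± 0.44, adjusted p = 0.000686). Hist1h4f was at 1.06, 0.605 and 0.478 CPM and 2.07, 2.25 and 8.08 CPM (-2.07 ± 0.44, adjusted p = 0.00140). The groups of Hist1h2bn overlapped and those of the other 2 did not. Leaving out Type II ended the calls of Hist1h2ao and Hist1h4f, and leaving out Type I that of Hist1h2ao.

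The smallest falls among the called members included the H2A genes with the most counts. Hist1h2ap was at 114, 80.8 and 187 CPM in deep and 116, 107 and 202 CPM in shallow barcodes. Its log2 fold change was -0.34 ± 0.09 (adjusted p = 0.0163), and the groups overlapped. Hist1h2ae was at 124, 111 and 188 CPM in deep and 149.9, 178 and 254 CPM in shallow barcodes (-0.62 ± 0.09, adjusted p = 1.91e-05), also with overlap. Hist3h2ba changed by -0.74 ± 0.22 (adjusted p = 0.0225), Hist1h3i by -0.78 ± 0.21 (adjusted p = 0.0111) and Hist1h3a by -0.86 ± 0.19 (adjusted p = 0.00261). Hist3h2ba was at 4.32, 5.11 and 4.78 CPM in deep and 5.99, 6.18 and 14.4 CPM in shallow barcodes. Hist1h3i was at 7.02, 4.52 and 6.60 CPM and 9.10, 8.53 and 9.88 CPM. Hist1h3a was at 8.76, 6.95 and 10.0 CPM and 13.0, 11.2 and 18.9 CPM. These 3 did not overlap between groups. Of the 5, all but Hist1h2ae were no longer called without Type II, and Hist3h2ba was not called whichever library was left out.

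**Figure D2:**
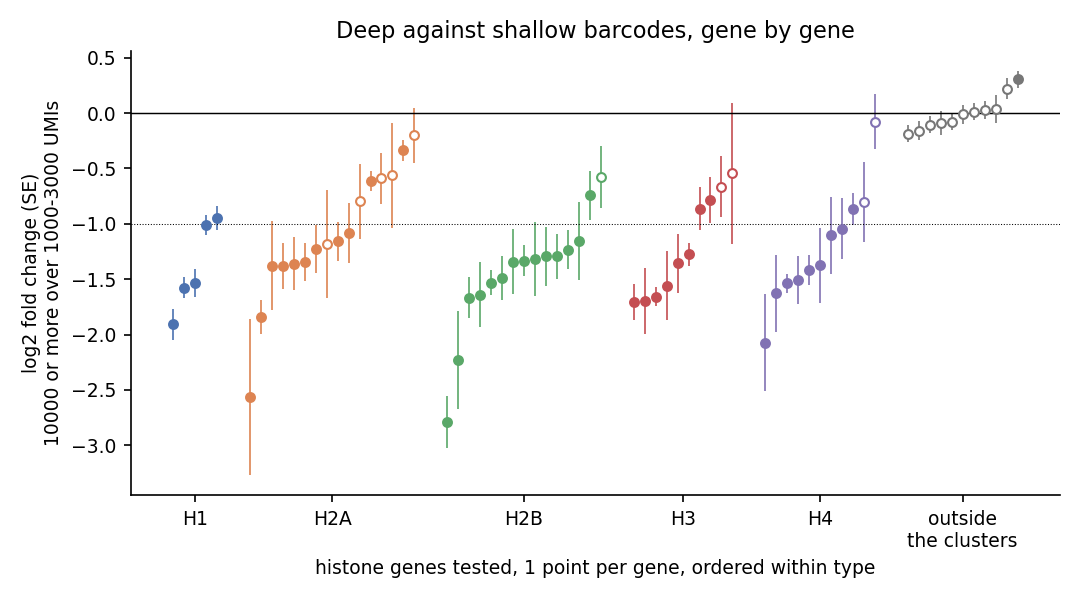
Log2 fold change of deep over shallow barcodes (y axis, bars ± SE) for each of the 57 tested members and 11 histone genes outside the clusters, placed by histone type (x axis) and ordered within it. Filled points passed at an adjusted p under 0.05, open ones did not, and the dotted line marks a 2-fold decrease. The 47 called members lie below 0, from -0.34 for Hist1h2ap to -2.79 for Hist1h2br.

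Of the 10 members not called, values ran from -0.08 for Hist4h4 to -1.18 for Hist1h2ad, so that no tested member was above 0 in the edgeR fit. Over the 57, all 3 libraries were lower in deep barcodes for 51, and the groups did not overlap for 37. Over all genes tested, 8.23% were lower in all 3 libraries and 3.00% were lower without overlap. Against intermediate barcodes, 45 of 57 were lower and 0 higher, where 14.9% of all genes passed, 5.88% lower and 8.99% higher. There, 38 were at least 2-fold lower, against 0.654% of all genes, and the median was -1.25. Of the 57, 6 averaged under 1 CPM in 1 of the 2 groups only. With no filter on low counts 46 of 65 were lower, where 1684 of 23607 genes in all were called. The extremes in that comparison were Hist1h2br (-2.59 ± 0.26, adjusted p = 5.65e-09) and Hist1h2ae (-0.35 ± 0.09, adjusted p = 0.00917). Hist1h2br was at 2.96, 1.80 and 3.25 CPM in deep and 12.0, 6.91 and 40.8 CPM in intermediate barcodes without overlap. Hist1h2ae was at 124, 111 and 188 CPM and 121, 130.1 and 263 CPM, with overlap, and without Type II or Type III it was not called.

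Other genes of histone supply were put to the same test, which 11.0% of all genes passed. Of 11 tested histone genes outside the clusters, which include the replacement variants, H2afx rose (0.30 ± 0.08, adjusted p = 0.00743) and 10 did not pass the test. H2afx encodes the H2A variant phosphorylated at DNA breaks, and it is among the other transcripts in which the stem-loop was found. Of 18 genes for histone mRNA transcription and processing, Cpsf2, a subunit of the cleavage complex, rose (0.37 ± 0.10, adjusted p = 0.00966) and 17 did not pass. Of 24 histone chaperone and import genes, Atrx and Anp32e rose and 22 did not pass. Mcm2-7 and Pcna, genes of the replication helicase and its sliding clamp, had 2 up, 1 down and 4 not called of 7. Summed, they were at 652, 639 and 711 CPM in shallow and 666, 710.2 and 822 CPM in deep barcodes.

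Shallow barcodes differed from deep ones in other RNA as well. Transcripts that overlap ribosomal RNA took 11.5, 8.30 and 7.24% of the UMIs in shallow and 1.33, 0.938 and 0.741% in deep barcodes. Among them AY036118 changed by -4.59 ± 0.11 (adjusted p = 5.38e-26) and Gm42418 by -3.24 ± 0.11 (adjusted p = 8.00e-22). Mitochondrial UMIs were 2.64, 2.92 and 2.83% in shallow and 4.35, 4.87 and 4.64% in deep barcodes. Without both kinds the histone ratios of deep to shallow were 0.4996, 0.430 and 0.396. The shallow level was 1.29, 1.70 and 2.04 times that of the highest of the deep EPI-like, PrE-like and TE-like classes described below. Deep classes outside these, given under other observations, could lie higher. In Type III streak mesoderm-like barcodes were above EPI-like ones. In Type I 2C-like barcodes were above the shallow level, but a single barcode held 49.7% of their histone UMIs.

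Within deep barcodes the level still varied with depth. It was 1310.3, 913 and 1856 CPM at 10000 to 20000 UMIs, 866, 673 and 1759 CPM at 20000 to 40000 and 925, 805 and 998 CPM at 40000 or more. The level was highest in the first stratum in every library, but the lowest was the middle stratum in Type I and II and the last in Type III. Single barcodes ranged widely. Over kept barcodes of all depths, the one with the highest share was in Type III, with 378 histone UMIs of 5264 (7.18%). The 10% of deep barcodes with the most of these UMIs held 38.2, 36.1 and 40.8% of them.

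The link to replication genes was examined in the deep barcodes. Each was thinned to 10000 UMIs to count the 7 genes Mcm2-7 and Pcna, ranked within its library, and placed in a low, middle or high tercile (3 equal parts). Clustered histone RNA rose with them. The summed level was 639, 572 and 833 CPM in the low tercile, 914, 754 and 988 CPM in the middle and 1256, 996 and 1436 CPM in the high tercile. The order was the same in every library. The high tercile was at 1.97, 1.74 and 1.72 times the low tercile, and for H1 genes alone at 2.13, 1.90 and 2.04 times. Across barcodes, Spearman's rho of histone with Mcm2-7 and Pcna UMIs was 0.30, 0.30 and 0.26 over 1405, 1992 and 272 barcodes. Both counts come from the same thinned barcodes, and these are descriptions without a test. Of the 39 members with at least 500 UMIs, 36, 36 and 32 had a rho above 0, with medians of 0.0807, 0.0540 and 0.0897.

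**Figure D3:**
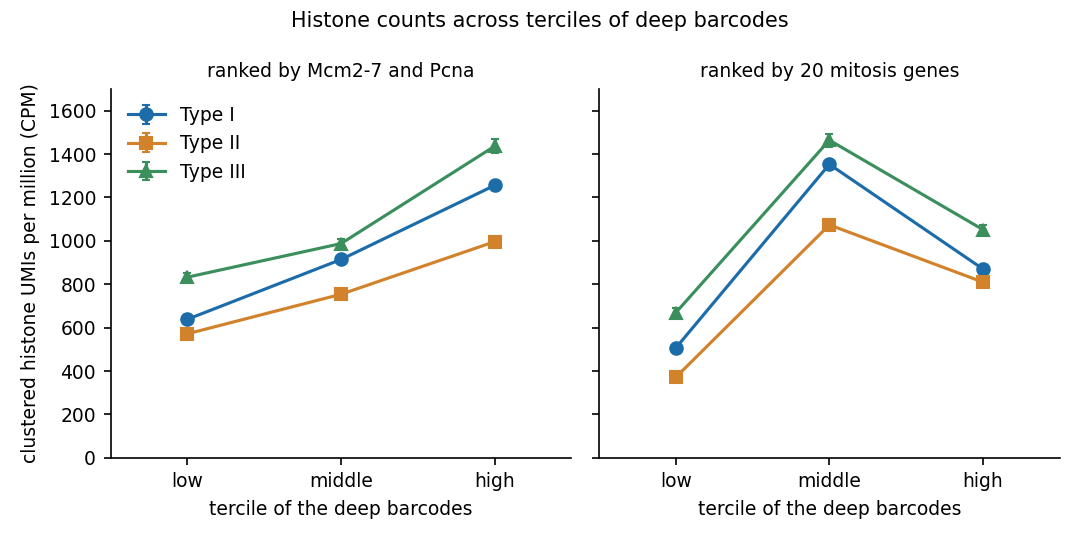
Summed clustered histone level (CPM, y axis, from 0) in deep barcodes divided into terciles within each library (x axis), by Mcm2-7 and Pcna UMIs and by UMIs of 20 mitosis genes. Points are libraries, joined by lines, with exact Poisson 95% intervals for counting error only. The level rises to the high tercile for Mcm2-7 and Pcna, and peaks in the middle tercile for the mitosis genes.

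Of 51 members tested in the high over the low tercile, 44 rose and 2 fell. Of the 51, 3 averaged under 1 CPM in 1 of the 2 groups only. Of all genes, 51.0% passed the test, 24.9% up and 26.1% down. The groups did not overlap for 22 of the 51 members and for 43.2% of all genes. The median log2 fold change was 0.88 for the members and -0.01 for all genes. All 5 H1 genes rose, with 10 of 13 H2A, 13 of 14 H2B, 9 of 9 H3 and 7 of 10 H4 genes. Without Type I, 27 members were called, 26 of them up, where 4147 of 12278 genes in all were called. Without the library block the number was 20, with Pcna alone as the ranking 23, and with terciles formed within each class of cells 19. Over all genes tested, 3112 of 12235, 960 of 12234 and 719 of 12239 were called in those settings, in that order. The median of the members was then 0.50 with Pcna alone and 0.48 within classes. With no filter on low counts 47 of 64 members rose and 2 fell, where 6537 of 23287 genes in all were called. The terciles differed in their classes of cells, which are described below. EPI-like barcodes made up 8.74, 8.73 and 16.5% of the low tercile and 21.2, 25.2 and 41.1% of the high one. PrE-like barcodes made up 63.1, 60.5 and 31.9% of the low tercile and 31.0, 23.6 and 3.33% of the high one.

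Hist1h2af had the largest increase. It was at 4.36, 2.71 and 10.5 CPM in the high and 1.10, 0.681 and 1.82 CPM in the low tercile (2.13 ± 0.19, adjusted p = 2.38e-05), without overlap. Hist1h1b, which encodes a linker histone, was at 99.2, 104 and 80.2 CPM in the high and 29.1, 38.1 and 20.4 CPM in the low tercile (1.67 ± 0.13, adjusted p = 1.44e-05). Hist1h1a was at 50.0, 44.4 and 33.2 CPM and 17.0, 18.2 and 13.0 CPM (1.40 ± 0.07, adjusted p = 1.47e-06). Neither linker gene overlapped between groups, and both are free of copied windows. Hist1h2ak was at 9.24, 6.45 and 11.7 CPM and 3.57, 2.94 and 4.47 CPM (1.29 ± 0.15, adjusted p = 0.000128). Hist1h2an was at 3.84, 2.28 and 7.28 CPM and 1.59, 0.968 and 2.79 CPM (1.29 ± 0.19, adjusted p = 0.000433), with overlap. The smallest increases called were those of Hist1h3e (0.42 ± 0.09), Hist1h2bb (0.57 ± 0.19) and Hist1h1e (0.60 ± 0.09). Hist1h3e was at 49.0, 35.7 and 56.0 CPM in the high and 32.1, 26.5 and 50.9 CPM in the low tercile, with overlap. Hist1h1e was at 117, 108 and 96.0 CPM and 73.3, 75.8 and 62.9 CPM, without overlap. Hist1h2bb was at 4.92, 2.68 and 2.71 CPM and 2.51, 2.15 and 2.51 CPM, without overlap. Without Type I, Hist1h3e and Hist1h2bb were not called, and Hist1h2bb was also not called without Type II.

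The 2 genes that fell were Hist3h2a and Hist1h2bc, neither of which shares its 3′ end with another histone gene, though Hist3h2a overlaps Trim17 on the same strand. Hist3h2a was at 2.46, 3.14 and 1.86 CPM in the high and 5.69, 5.92 and 4.33 CPM in the low tercile (-1.07 ± 0.16, adjusted p = 0.000504). Hist1h2bc was at 6.86, 7.34 and 4.74 CPM and 9.38, 9.97 and 7.96 CPM (-0.49 ± 0.16, adjusted p = 0.0267). Neither overlapped, and both were lower in all 3 libraries. A stem-loop core was found in Hist3h2a, and its annotated transcript runs 1643 bases past it. For Hist1h2bc no stem-loop was found in the annotated transcript. The stem-loop of Hist3h2a is the following.
Hist3h2a: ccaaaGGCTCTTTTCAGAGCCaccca
It lies at chr11:58955167-58955192 (+ strand). The fall of Hist1h2bc was not called without Type I or Type II, or when Mcm2-7 alone, Pcna alone or terciles within classes were used, and Hist3h2a held in every alternative run. The 5 members not called were Hist1h2aa, Hist2h4, Hist1h2ac, Hist1h4n and Hist1h4i.

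Genes with few copied windows moved too. Of the 16 tested members with under 20% copied windows, 10 rose and 2 fell. Of all genes, 24.9% rose and 26.1% fell between these terciles, which holds for each list below. In the depth comparison 10 of the 16 fell, against 4.69% of all genes. By transcript end, 17 of 18 members that end at the stem-loop rose between the terciles. Of those that run past it 15 of 19 rose and 1 fell, and of those with none 12 of 14 rose and 1 fell. Other lists moved too. Of 22 further S-phase genes, 21 rose, with Ung (2.23 ± 0.07, adjusted p = 2.85e-07) and Cdc6 (1.68 ± 0.08, adjusted p = 1.08e-06) among the largest. Of 24 chaperone and import genes 20 rose and 1 fell, with Chaf1a at 1.12 ± 0.06, adjusted p = 2.43e-06 and Nasp at 0.89 ± 0.04, adjusted p = 1.43e-06. Chaf1a is a subunit of chromatin assembly factor, and Nasp is a chaperone of H3 and H4. Of 18 genes for histone mRNA transcription and processing, 11 rose and 2 fell, with Slbp at 0.90 ± 0.05, adjusted p = 3.22e-06 and E2f1 at 1.51 ± 0.09, adjusted p = 3.67e-06. Of 11 histone genes outside the clusters, 7 rose and 3 fell. H2afz, which encodes the variant H2A.Z, rose (0.46 ± 0.05, adjusted p = 9.74e-05), and H1f0, the replacement linker histone, fell (-0.76 ± 0.09, adjusted p = 0.000120).

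The difference between terciles was also present within the cell classes described below, with sizes that varied. In EPI-like barcodes the low tercile was at 1197, 960.1 and 1178 CPM and the high tercile at 1440.2, 1148 and 1288 CPM. In TE-like barcodes they were at 950.4, 651 and 851 CPM and 1779, 1152 and 1535 CPM. In PrE-like barcodes they were at 489, 433 and 385 CPM and 940.4, 793 and 634 CPM. The high tercile was higher in each library and class, by the least in EPI-like barcodes. In Type III, 49 deep barcodes were PrE-like in all, so few stand behind the PrE-like values of that library. Spearman's rho was 0.20, 0.16 and 0.20 within EPI-like barcodes and 0.39, 0.31 and 0.38 within TE-like ones. Within PrE-like barcodes it was 0.22 in Type I and 0.21 in Type II.

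A ranking by 20 mitosis genes gave a different shape. The level was 506, 371 and 669 CPM in the low tercile, 1353, 1074 and 1464 CPM in the middle and 870.4, 809.9 and 1052 CPM in the high tercile. In all 3 libraries the middle tercile was highest and the low tercile lowest. Of 50 members tested in the high over the low tercile, 8 of which averaged under 1 CPM in 1 of the 2 groups only, 38 rose and 1 fell, where 21.0% of all genes passed, 9.93% up and 11.1% down. The median was 0.87 for members and -0.03 for all genes. The groups did not overlap for 26 of the 50 members and for 25.2% of all genes. Without Type I the number of members called was 19, and without Type II 17. Over all genes tested, those runs called 650 of 12287 and 670 of 12257.

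Hist1h3c was at 70.8, 51.8 and 66.8 CPM in the high and 28.5, 15.7 and 31.9 CPM in the low tercile (1.32 ± 0.11, adjusted p = 1.82e-05), without overlap. Hist1h2bc, the gene that fell, was at 5.07, 5.19 and 4.14 CPM in the high and 13.8, 11.7 and 11.6 CPM in the low tercile (-1.43 ± 0.13, adjusted p = 4.95e-05), also without overlap. It held in every alternative run. The other 4 of the largest rises were Hist1h2bh (1.53 ± 0.33), Hist1h2bk (1.36 ± 0.20), Hist1h3b (1.33 ± 0.21) and Hist1h2bg (1.33 ± 0.30). Hist1h2bh, Hist1h3b and Hist1h2bg averaged under 1 CPM in the low tercile and passed the filter on low counts only through the other terciles. The smallest rises called were those of Hist1h1c (0.47 ± 0.11), Hist1h2be (0.54 ± 0.17), Hist1h1b (0.57 ± 0.17) and Hist1h4h (0.69 ± 0.18). Of these 8, Hist1h3b was not called without Type I, Hist1h2bk was called whichever library was left out, and the other 6 were not called without Type I or Type II. In Type III, Hist1h1b and Hist1h4h were lower in the high tercile, so that 2 of 3 libraries rose. Adjusted p-values of the 8 ran from 0.00145 to 0.0463.

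Since the middle tercile had the highest level, it was set against the other 2 in comparisons added after seeing the data. Against the low tercile, 46 of 50 members rose and 2 fell, 40 of them up by at least 2-fold. Of all genes, 22.9% passed, 11.8% up and 11.1% down, and 1.71% rose at least 2-fold. The median of the members was 1.39. The groups did not overlap for 41 of the 50 members and for 23.6% of all genes. Hist2h2bb was at 24.6, 20.8 and 17.6 CPM in the middle and 7.12, 5.22 and 9.75 CPM in the low tercile (1.67 ± 0.16, adjusted p = 0.000101), without overlap. Hist1h3b (1.81 ± 0.20, adjusted p = 0.000253) and Hist1h4c (1.78 ± 0.24, adjusted p = 0.000894) had the largest changes. Hist1h3b was at 3.67, 2.80 and 3.24 CPM and 1.08, 0.740 and 0.928 CPM. Hist1h4c was at 4.98, 2.76 and 8.02 CPM and 1.31, 0.822 and 2.63 CPM. Hist1h2an (1.69 ± 0.20) and Hist2h3b (1.67 ± 0.35) were next. Of the 50 members, 8 averaged under 1 CPM in 1 of the 2 groups only. Among them, Hist1h3b and Hist2h3b were under 1 CPM in the low tercile and passed the filter only through the other terciles. Hist1h2bc (-0.82 ± 0.13, adjusted p = 0.00189) and Hist3h2a (-0.71 ± 0.17, adjusted p = 0.0174) fell. Hist3h2a was not called without Type I or Type II, and Hist2h3b not without Type II. Without Type II 31 members were called in all, and 573 of 12257 genes.

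Against the high tercile, 17 of 50 members were higher in the middle tercile and 1, Hist3h2a, was lower. Of all genes 5.00% passed, 2.30% higher and 2.70% lower. Hist1h1b was at 96.3, 98.7 and 76.0 CPM in the middle and 49.3, 66.6 and 40.5 CPM in the high tercile (0.86 ± 0.16, adjusted p = 0.0149), without overlap. Hist1h4d was at 218, 168 and 223 CPM and 156, 127 and 160.1 CPM (0.53 ± 0.08, adjusted p = 0.00336), also without overlap. Hist3h2a was at 2.47, 2.63 and 2.78 CPM and 5.61, 5.80 and 4.77 CPM (-1.03 ± 0.17, adjusted p = 0.00659). All 5 H1 genes were higher in the middle tercile. This comparison rests on Type I: without it 1 member was called, and without Type II 10 were. Over all genes tested, 119 of 12287 and 190 of 12257 were then called.

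With both rankings crossed, 9 groups of deep barcodes resulted. The lowest level was in barcodes low in both, at 256, 235 and 211 CPM. The highest was in those high in Mcm2-7 and Pcna and in the middle tercile for mitosis genes, at 1593, 1150.0 and 1599.8 CPM. Barcodes low in Mcm2-7 and Pcna and high in mitosis genes were at 685, 668 and 869 CPM. These 3 groups held the same order of lowest and highest in every library. The mitosis genes themselves fell from the low to the high tercile of Mcm2-7 and Pcna, with 17 of 20 down. Of all genes, 26.1% fell in that comparison.

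**Figure D4:**
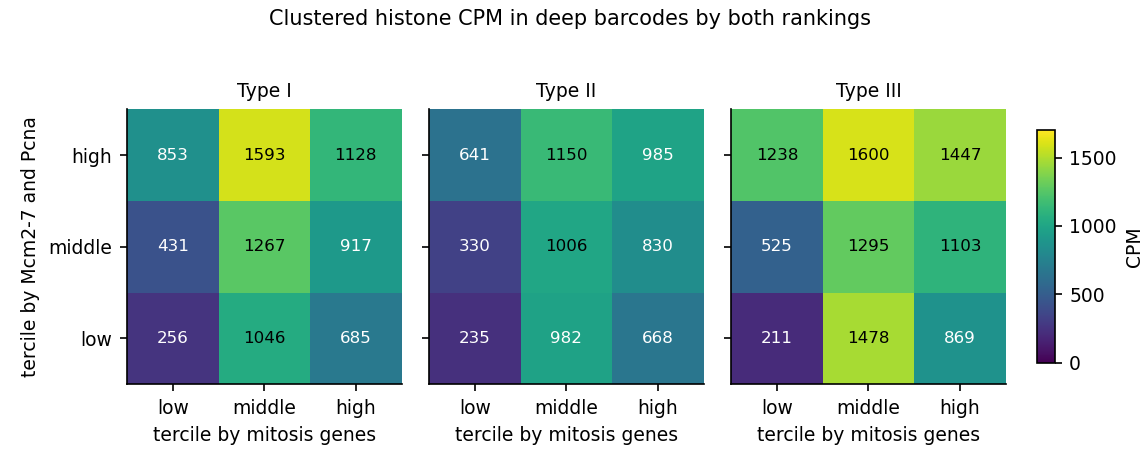
Summed clustered histone level (CPM, colour and printed value) in deep barcodes by tercile of mitosis genes (x axis) and tercile of Mcm2-7 and Pcna (y axis), 1 panel per library. The cell low in both holds 256, 235 and 211 CPM, and the cell with high Mcm2-7 and Pcna and middle mitosis genes 1593, 1150.0 and 1599.8 CPM.

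Classes of deep barcodes were compared last. The barcodes were clustered without the histone, replication, mitosis, processing and chaperone genes, and clusters were named from marker lists: epiblast-like (EPI, 207, 334 and 77 barcodes), primitive endoderm-like (PrE, 664, 867 and 49) and trophectoderm-like (TE, 147, 238 and 62). PrE-like barcodes had the lowest histone level of these 3. EPI-like barcodes were at 1320.3, 1004 and 1249.8 CPM, TE-like at 1248, 942 and 1079.7 CPM and PrE-like at 702, 574 and 605 CPM. PrE-like levels did not overlap with those of the other 2, which overlapped each other. Mcm2-7 and Pcna summed to 839.9, 915 and 1054 CPM in EPI-like, 724, 685 and 760.4 CPM in TE-like and 533, 531 and 545 CPM in PrE-like barcodes in the 3 libraries. The high tercile of PrE-like barcodes by Mcm2-7 and Pcna was at 940.4, 793 and 634 CPM of histone RNA. The low tercile of EPI-like barcodes was higher in each library, at 1197, 960.1 and 1178 CPM. These 2 groups were not matched for Mcm2-7 and Pcna, and whether those genes account for the difference was not tested. Type III had 49 PrE-like barcodes in all, so few stand behind its value. No single cluster held most of the PrE-like barcodes. The largest held 36.3% of them in Type I and was led by Epas1 and Col4a1. In Type II the largest, led by Apoa1, held 29.8%, and in Type III one led by Htra1 held 26.5%. The same 2 clusters were the largest in Type I and Type II. The cluster led by Apoa1 met 6 markers of the PrE list (Dab2, Foxa2, Apoa1, Apob, Ttr and Amn), but not Gata6, Gata4, Sox17, Sox7 or Pdgfra. PrE-like therefore names barcodes by that list and does not set their stage.

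**Figure D5:**
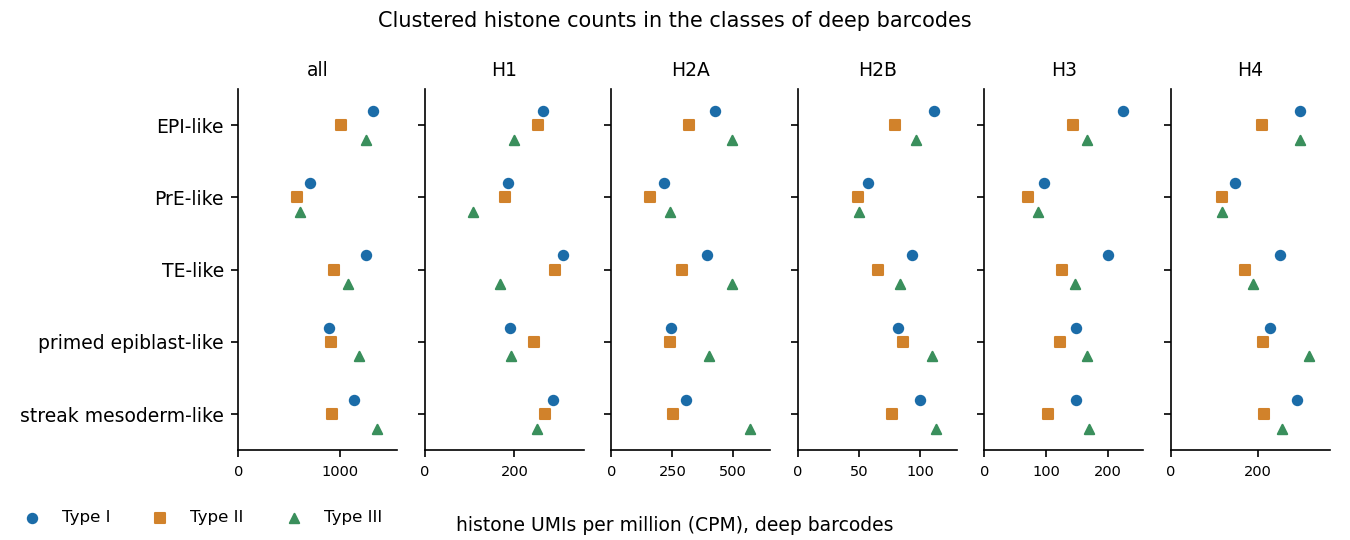
Clustered histone level (CPM, x axes, each from 0 on its own scale) in deep barcodes by class (y axis), 1 point per library, with all members summed in the first panel and each histone type in a panel of its own. In the first panel EPI-like points lie at 1320.3, 1004 and 1249.8 CPM and PrE-like points at 702, 574 and 605 CPM, without overlap.

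In PrE-like over EPI-like barcodes 49 of 53 tested members fell and 3 rose, 39 of them down by at least 2-fold. Of the 53, 11 averaged under 1 CPM in 1 of the 2 groups only, and with no filter on low counts 54 of 64 fell and 3 rose. Of all genes, 75.7% passed, 37.1% down and 38.5% up, and 17.0% fell at least 2-fold. The median was -1.36 for members and 0.01 for all genes. The groups did not overlap for 39 of the 53 members and for 73.7% of all genes. Hist1h3a was at 3.05, 2.64 and 4.43 CPM in PrE-like and 17.3, 13.2 and 14.8 CPM in EPI-like barcodes (-2.53 ± 0.19, adjusted p = 3.82e-10), without overlap. Hist1h2bk was at 0.775, 0.528 and 0.738 CPM and 6.17, 4.68 and 8.74 CPM (-3.32 ± 0.25, adjusted p = 4.09e-10). Hist1h2bf was at 0.225, 0.317 and 0.185 CPM and 2.09, 2.07 and 2.24 CPM (-3.16 ± 0.35, adjusted p = 1.41e-07). Neither overlapped. Hist1h2aa, the testis H2A variant, was at 0.250, 0.0791 and 0 CPM and 2.27, 1.54 and 0.610 CPM (-3.62 ± 0.46, adjusted p = 9.18e-07), and its count of 0 in Type III allows up to 0.554 CPM. It had 215 UMIs in 98 barcodes, and it passed the filter on low counts only through the other classes. Hist1h2ag (-2.46 ± 0.27) was the fifth of the largest falls. Hist1h2bk, Hist1h2bf and Hist1h2ag also averaged under 1 CPM in PrE-like barcodes and passed the filter only through the other classes. The smallest falls called were those of Hist1h1c (-0.48 ± 0.11, adjusted p = 0.000437) and Hist2h2bb (-0.59 ± 0.14, adjusted p = 0.000618).

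The 3 genes that were higher in PrE-like barcodes were Hist1h2bc, Hist3h2a and Hist1h1e. Hist1h2bc was at 11.3, 11.3 and 8.86 CPM in PrE-like and 5.89, 4.68 and 7.31 CPM in EPI-like barcodes (0.73 ± 0.18, adjusted p = 0.00144). Hist3h2a was at 4.10, 4.67 and 4.98 CPM and 1.99, 2.88 and 2.24 CPM (0.68 ± 0.22, adjusted p = 0.00843). Both were higher in all 3 libraries without overlap. Hist1h1e was at 96.4, 93.8 and 51.1 CPM and 59.4, 55.0 and 51.2 CPM (0.36 ± 0.14, adjusted p = 0.0285), higher in Type I and Type II alone. Without Type II none of the 3 was called, and without Type I Hist3h2a and Hist1h1e were not. Of 11 histone genes outside the clusters, H1f0 (1.96 ± 0.11, adjusted p = 7.46e-12) and H2afj (0.97 ± 0.09, adjusted p = 1.01e-08) rose and 9 fell. H1fx changed by -2.28 ± 0.13, adjusted p = 7.54e-12 and H2afx by -2.08 ± 0.13, adjusted p = 3.08e-11. Of the 16 members with under 20% copied windows 14 fell and 2 rose, where 37.1% of all genes fell and 38.5% rose.

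In TE-like over EPI-like barcodes, 32 of 53 members fell and 1, Hist1h1e, rose, where 65.4% of all genes passed, 31.8% down and 33.6% up. The groups did not overlap for 15 of the 53 members, against 69.3% of all genes. Of the 53, 1, Hist2h2ab, averaged under 1 CPM in 1 of the 2 groups only. This comparison depends on the scaling. With library totals only, which move the median of all genes to 0.43, 16 members fell and 4 rose. Of 12241 genes in all, 2041 then fell and 6596 rose. Hist1h1e was at 119.5, 120.1 and 82.4 CPM in TE-like and 59.4, 55.0 and 51.2 CPM in EPI-like barcodes (0.56 ± 0.15, adjusted p = 0.00243), without overlap, and was not called without Type II. Hist1h4h was at 11.6, 10.1 and 9.43 CPM and 21.9, 15.3 and 20.5 CPM (-1.24 ± 0.17, adjusted p = 2.40e-06). Hist1h2ag was at 1.32, 0.933 and 1.60 CPM and 3.17, 2.47 and 6.30 CPM (-1.93 ± 0.30, adjusted p = 1.57e-05). Neither overlapped. Hist1h4b (-1.60 ± 0.39), Hist2h4 (-1.35 ± 0.31) and Hist1h2bk (-1.27 ± 0.23) were the other 3 of the largest falls. H4 genes fell most often, 9 of 10. Hist1h1c, Hist1h3e, Hist1h2ap and Hist1h3f, with the smallest falls called, were not called with library totals only, and the first 2 then changed sign. In CPM, Hist1h1c and Hist1h3e were higher in TE-like barcodes of 2 of the libraries, and Hist1h2ap and Hist1h3f of 1.

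In PrE-like over TE-like barcodes, 31 of 53 members fell and 2, Hist1h2bc and Hist3h2a, rose. Of all genes 67.6% passed, 34.9% down and 32.7% up. The groups did not overlap for 29 of the 53 members and for 68.7% of all genes. Of the 53, 10 averaged under 1 CPM in 1 of the 2 groups only. Hist1h2bc was at 11.3, 11.3 and 8.86 CPM in PrE-like and 3.84, 3.64 and 5.82 CPM in TE-like barcodes (1.56 ± 0.20, adjusted p = 1.64e-06), without overlap. Hist3h2a was at 4.10, 4.67 and 4.98 CPM and 2.78, 2.80 and 3.01 CPM (0.85 ± 0.22, adjusted p = 0.00240), and was not called without Type II. Hist1h2aa was at 0.250, 0.0791 and 0 CPM and 3.84, 2.15 and 2.21 CPM (-4.01 ± 0.45, adjusted p = 2.06e-07). Hist1h2bf (-2.29 ± 0.40), Hist1h2bk (-2.04 ± 0.28), Hist1h2bh (-1.69 ± 0.29) and Hist1h3a (-1.59 ± 0.20) were the other 4 of the largest falls. Hist1h2aa, Hist1h2bf, Hist1h2bk and Hist1h2bh averaged under 1 CPM in PrE-like barcodes, so that they passed the filter only through the other classes. H3 genes fell in 8 of 9 cases and H4 genes in 3 of 10. The 3 class comparisons share barcodes, and their values are not independent of each other.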

How the data were processed

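The authors deposited a matrix of UMI counts for each library. Cell Ranger 6.0.1 is named per the file headers, and genome build mm10 per the submitters' processing notes. How barcodes were called and which annotation was used are not given in the sources used here. The deposited barcodes held 90126648, 106445641 and 25443474 UMIs in Type I, II and III. Barcodes were kept with at most 20% mitochondrial UMIs, at least 500 genes and at least 1000 UMIs. Counts were summed per library and group of barcodes, and CPM used all UMIs of a sum. Intervals of levels are exact Poisson intervals and those of ratios normal intervals on the log scale, all at 95% and for counting error only.

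Sums were tested with the quasi-likelihood test of edgeR 4.0.16 in R 4.3.3, with the library as a block, TMM scaling, genes of a mean CPM of at least 1 and at least 30 counts, and Benjamini-Hochberg adjustment over all genes tested. Each fit held all groups of 1 division of the barcodes (depth, terciles or classes). A gene was called at an adjusted p under 0.05. The SE is the log2 fold change divided by the square root of the F statistic. The block pairs barcode groups of the same library. The 3 libraries are the only repeats, and the number of genes called depends on which of them are included. Deep barcodes were thinned to 10000 UMIs for ranking and clustered with scanpy 1.11.5 and leidenalg 0.10.2 on 2000 variable genes, 30 components, 15 neighbours and a resolution of 1, leaving out the histone, replication, mitosis, processing and chaperone genes. Clusters were named where at least 3 markers of a class were met. Scrublet at its own threshold marked 1 barcode in each library, which is no working call of doublets. Barcodes with the highest scores were therefore left out only as an alternative. The other alternatives were DESeq2 1.42.0, its size factors, library totals only, no filter on low counts, no block, leaving out each library, at most 10% mitochondrial UMIs, other rankings, terciles within classes and a resolution of 0.5.

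The histone genes, the lists, the tests and the named genes were chosen with earlier results of these data known. Named genes are those with at least 500 UMIs, the called members with the 5 highest and 5 lowest fold changes of a comparison, and up to 3 called genes a direction of each other list. The libraries' types were not compared by a test.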

Additional observations from a re-analysis of the deposited data

Results flagged for a closer look

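Barcodes that the filters leave out also held clustered histone UMIs. Their level was 1369 CPM in 1539 barcodes of Type I, 940.5 CPM in 929 of Type II and 1663 CPM in 1120 of Type III. These values drew attention because they lie in barcodes that no comparison used and are above the limit that a count of 0 allows. In each library the level was between those of the deep and the shallow barcodes. With 1 library per type, no group had enough samples to look for a sample far from the others.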

How the results depend on the processing

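Across 118 recalculated counts and ratios, 94 stayed within 1.5 times the reported count or within counting error and 24 moved. Of the genes named in comparisons, 821 results kept their direction and their side of the threshold, 169 kept the direction but were no longer called, and 2 reversed. Without the replicate block for the library, the number of members called was 15 in deep over shallow and 12 in deep over intermediate barcodes, 20 in the Mcm2-7 and Pcna terciles, and 9, 24 and 0 in the mitosis terciles (high over low, middle over low and middle over high). Over all genes tested, the same runs called 90, 144, 3112, 536, 510 and 128. In middle over high, edgeR without the block had 15 members at an unadjusted p under 0.05, and DESeq2 with the block called 14. DESeq2 called 25 members in deep over shallow barcodes. In the Mcm2-7 and Pcna terciles, Pcna alone gave 23 and terciles within classes 19. Over all genes tested, those runs gave 960 of 12234 and 719 of 12239. With library totals only, 20 members were called in TE-like over EPI-like barcodes, and Hist1h1c (0.0572) and Hist1h3e (0.0292) reversed. That scaling moved the median of all genes to 0.21, 0.43 and -0.23 in PrE-like over EPI-like, TE-like over EPI-like and PrE-like over TE-like barcodes, and to 0.13 in deep over shallow ones. The cause of these changes was not tested. The deep to shallow ratio was 0.4996, 0.430 and 0.396 without mitochondrial and rRNA-overlapping UMIs. As a mean of single-barcode shares it was 0.569 in Type I and 0.479 in Type III. Without the 1% of barcodes with the highest histone share, a choice made after seeing the data, it was 0.573 in Type I and 0.455 in Type III. Leaving out each library in turn gave 30 to 44 members in deep over shallow barcodes and 34 to 42 in deep over intermediate ones, 27 to 46 in the Mcm2-7 and Pcna terciles, 17 to 39, 31 to 46 and 1 to 17 in the mitosis terciles, 41 to 53 in PrE-like over EPI-like, 22 to 33 in TE-like over EPI-like and 22 to 33 in PrE-like over TE-like barcodes. With 2 libraries the fit has few degrees of freedom. Counts limit the 28 members under 500 UMIs, of which 10 had under 100, and types cannot be told apart from their single libraries.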

Other observations

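Other classes of deep barcodes also differed in histone level, as values with no test. Barcodes with markers of the 2-cell stage (2C-like, such as Zscan4c and Zscan4d), 9, 15 and 7 in number, were at 2487, 1309 and 1885 CPM, but a single barcode held 49.7, 45.0 and 40.4% of those UMIs. Without it the level was 1371, 761 and 1906 CPM. The median 2C-like barcode was at 1047, 674 and 1035 CPM and the median EPI-like one at 984, 815 and 1123 CPM, so that the typical 2C-like barcode was below the EPI-like one in Type II and Type III. Primed epiblast-like barcodes (107, 190 and 37) were at 893, 905 and 1186 CPM and streak mesoderm-like ones (181, 294 and 29) at 1129, 916 and 1356 CPM. Both lay above the PrE-like level of their library. The division between these 2 classes depends on the resolution. At 0.5, streak mesoderm-like barcodes numbered 66, 107 and 5 and primed epiblast-like ones 223, 388 and 61. At the resolution used, the larger streak mesoderm-like cluster (116, 189 and 24 barcodes) met 3 markers of its list, T, Evx1 and Wnt3. Blood or endothelial-like barcodes (7, 9 and 4) ranged from 293.8 to 1360.1 CPM, and few barcodes stand behind those values.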
